A study of Sus scrofa with 20 samples.

Results

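Genes of apolipoproteins and of lipoprotein assembly were followed in RNA-seq libraries of backfat and liver from Nanchukmacdon pigs. The genes were taken by name: APOA1, APOA2, APOA4, APOA5, APOB, APOC3, APOE, APOM, APOD and MTTP, 10 in all. Of these, 9 had a pig Ensembl gene ID in the name table and a row among the 31907 genes of the count table, and all 9 were among the 16275 genes that passed the filter on low counts. APOA5 had no ID there and was skipped. The study took liver and backfat of boars on 1 farm, 5 libraries per tissue for RNA-seq and 5 per tissue for bisulfite sequencing (20 samples in all). The labels give every animal as 22 months old and of normal disease state, and the study's methods give a higher average age. No treatment, edited allele or transgene was involved, and both tissues were taken in bulk. The number in a library's name, 65, 67, 69, 71 or 72, recurred in both tissues and was read as the boar. The deposited bisulfite summaries list calls by position in the read, not in the genome, so they were not used here for single genes.

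Apolipoproteins are the proteins on the surface of lipoprotein particles, which carry triglyceride and cholesterol through the blood. APOB is the scaffold of very low density lipoprotein, and MTTP, the microsomal triglyceride transfer protein, loads lipid onto it in the endoplasmic reticulum of hepatocytes and enterocytes. The small helical apolipoproteins (APOA1, APOA2, APOA4, APOC3, APOE) can move between particles and steer their metabolism, while APOD and APOM are lipocalins, proteins with a binding pocket for small lipids.

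Levels are given as TMM CPM, the usual depth-scaled count with library sizes adjusted by edgeR's trimmed mean of M values (TMM). A gene was called where the edgeR quasi-likelihood test gave a Benjamini-Hochberg adjusted p (FDR) of at most 0.05 over all tested genes and the log2 fold change of backfat over liver was at least 2 in size, so a negative value is a higher level in liver. The libraries held 43820042 to 61772737 counts. All 8 hepatocyte markers on the list were called higher in liver and all 8 adipocyte markers higher in backfat. Among the libraries, 2 stood apart from their tissue. In backfat 69 the 8 hepatocyte markers summed to 122 TMM CPM, against 2.76 to 3.47 in the other backfat libraries and 24153 to 110570 in liver. In liver 67, 44.5% of counts lay on mitochondrially encoded genes (6.38 to 20.2% for liver of the other boars), and the skeletal muscle markers summed to 159 TMM CPM, against at most 1.22. For several genes, fold changes are given with and without backfat 69. None is given without it for APOA4, which had no other backfat count. In bulk tissue, fewer cells of a type and less RNA per cell cannot be told apart.

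The stretch of 250 bases before the transcript start is shown for 3 genes called higher in liver: APOA1, held in both tissues, and APOA2 and MTTP, nearly absent from backfat. The sequences were read from the RefSeq annotation of Sscrofa11.1 on the gene's own strand, and capitals mark exact matches on either strand to 4 short motifs. The letters CAAAG belong to sites bound by the liver factor HNF4A. The motif AGGTCA is the core of sites for many nuclear receptors. The core promoter was searched for TATAAA, and the letters CCAAT were searched as the motif bound by the factor NF-Y. No match overlapped another. APOA1 lay at chr9:44218361-44218610 on the minus strand, APOA2 at chr4:89237264-89237513 on the plus strand and MTTP at chr8:120871469-120871718 on the minus strand.
APOA1: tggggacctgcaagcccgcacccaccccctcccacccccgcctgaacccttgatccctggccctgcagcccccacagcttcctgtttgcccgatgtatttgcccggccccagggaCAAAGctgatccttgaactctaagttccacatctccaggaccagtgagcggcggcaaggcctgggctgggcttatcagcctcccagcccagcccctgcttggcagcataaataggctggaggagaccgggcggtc
APOA2: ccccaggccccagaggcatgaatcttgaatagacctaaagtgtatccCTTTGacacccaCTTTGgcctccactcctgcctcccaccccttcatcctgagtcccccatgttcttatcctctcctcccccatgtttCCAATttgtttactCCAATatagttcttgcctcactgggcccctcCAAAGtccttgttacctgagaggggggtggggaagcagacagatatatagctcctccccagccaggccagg
MTTP: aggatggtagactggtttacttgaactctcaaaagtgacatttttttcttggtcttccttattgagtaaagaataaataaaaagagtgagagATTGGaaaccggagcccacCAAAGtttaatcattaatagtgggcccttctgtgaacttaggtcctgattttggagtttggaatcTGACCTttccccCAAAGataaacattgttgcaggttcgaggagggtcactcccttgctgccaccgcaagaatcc
CAAAG matched in 4 of the 8 windows of genes called higher in liver (APOA1, APOA2, APOC3 and MTTP) and in 41.0% of the 19545 RefSeq protein-coding windows of the same length. AGGTCA matched in MTTP only among the 8 and in 12.2% of all windows, and CCAAT matched in APOA2, APOB and MTTP and in 31.5% of all. TATAAA matched in none of the 8 windows and in 9.86% of all. In MTTP the AGGTCA match lay 74 to 69 bases before the start, on the strand opposite to the gene, and a CAAAG match lay 62 to 58 bases before the start. The window of APOA2 held no CpG, that of MTTP held 3 and that of APOA1 held 8, where the median of all windows was 12. The RefSeq transcript of APOC3 began at its start codon, with 291 bases both in the transcript and in the coding part, so its window does not stand before a mapped transcript start. The windows of APOE and APOB rest on the annotated starts, which were not checked against reads. Their RefSeq transcripts held 1099 and 11929 bases, against 3534 and 14860 exon bases in the annotation used for counting. The window of APOM (chr7:23770595-23770844) lies inside the RefSeq gene, which begins at base 23768974. The windows of APOC3, APOE, APOB and APOM are thus not shown to lie directly before a transcript start. The motif counts over the 8 windows include all of them.

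The comparison of backfat with liver asked which lipoprotein genes differ between the tissues. Of the 9 genes, 8 were called higher in liver (11.2% of all tested genes were) and 1, APOD, was called higher in backfat (11.1% of all tested genes were). The 10 libraries did not overlap between the tissues for any of the 9, as they did not for 42.6% of all tested genes, 19.7% with liver above and 22.9% with backfat above (22.3% were called in either direction). Over all tested genes, 1819 were called higher in liver and 1814 higher in backfat, and 1340 and 2874 under scaling by library size alone, with 8 and 1 of the 9 genes in either case. APOA2, APOA4, APOB, APOC3 and MTTP had at least 10 counts in at most 1 backfat library and APOD in 3 liver libraries, so these 6 passed the filter through the tissue where they were high. The log2 fold changes ran from -14.06 for APOA4 to 9.85 for APOD, and the median of all tested genes was 0.00014. The genes fell into groups by level. APOA2, APOA4, APOB, APOC3 and MTTP averaged under 1% of their liver level in backfat and are called liver-only below. APOA1, APOE and APOM held at least 1% of their liver level and at least 1 TMM CPM in every library, and are called expressed in both tissues. APOD was the mirror of the first group, with a liver level under 1% of that in backfat. This split was read from the levels themselves and was not tested. APOA1 at 1.69% and APOM at 1.49% were the nearest above the limit, and MTTP at 0.0660% was the nearest below it. With a limit of 10% in place of 1%, all 8 genes that were higher in liver would count as liver-only.

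**Figure D1:**
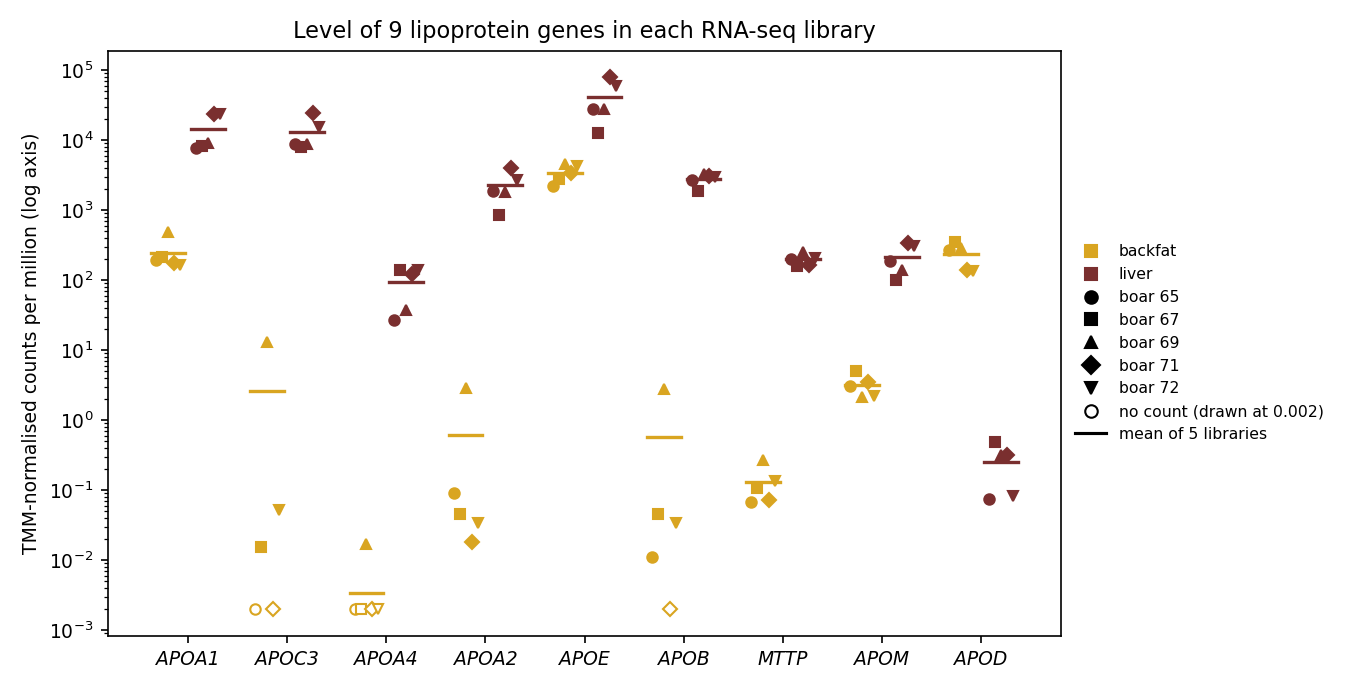
Level of each gene in each of the 10 RNA-seq libraries, as TMM CPM on a log axis, with backfat in yellow, liver in brown, the boar as the marker shape and the mean of 5 libraries as a bar. Open markers at 0.002 stand for libraries with no count. Backfat and liver are apart for all 9 genes, and backfat 69 stands above the other backfat libraries for APOC3, APOA2 and APOB.

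Both genes of particle assembly were liver-only. APOB (chr3:117250096-117316200) measured 2681, 1869, 3317, 3051 and 2937 TMM CPM in liver 65, 67, 69, 71 and 72. In backfat it measured 0.0113, 0.0458, 2.76, 0 and 0.0343 TMM CPM in the same order of boars. All liver libraries were far above all backfat libraries, and backfat 69 held 164 of the 170 APOB counts of that tissue. The log2 fold change was -12.25 (SE 1.74, FDR 6.78e-05 by edgeR), and it was -16.75 without backfat 69. MTTP (chr8:120820660-120871468), the partner that fills the particle with lipid, measured 204, 161, 250, 164 and 211 TMM CPM in liver. In backfat it measured 0.0677, 0.107, 0.269, 0.0721 and 0.137 TMM CPM. In TMM CPM the liver libraries were close to each other, within 1.55-fold from lowest to highest, and backfat 69 was again the highest of its tissue. MTTP changed by -10.57 on the log2 scale (SE 0.40, FDR 1.79e-09 by edgeR), and by -10.99 without backfat 69.

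APOA1, APOC3 and APOA4 are neighbours on chromosome 9, and they differed in what was left of them in backfat. APOA1 (chr9:44216481-44218360, minus strand) is the main protein of high density lipoprotein (HDL). Its levels in backfat were 195, 213, 482, 173 and 167 TMM CPM for boars 65, 67, 69, 71 and 72. In liver they were 7790, 8255, 9058, 23900 and 23897 TMM CPM. Every backfat library held APOA1 at over 100 TMM CPM, backfat 69 was the highest of them, and liver 71 and 72 were well above the other 3 liver libraries. Its log2 fold change was -5.89 (SE 0.66, FDR 8.79e-06 by edgeR), with a mean in backfat of 246 ± 133 and in liver of 14580 ± 8519 TMM CPM (SD, n = 5 each). Without backfat 69 the log2 fold change of APOA1 was -6.28.

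APOC3 (chr9:44211171-44213538, plus strand), an inhibitor of the clearance of triglyceride-rich particles, lay 2942 bases from APOA1. In liver it measured 8770, 8069, 8800, 24351 and 15538 TMM CPM. These levels were close to those of APOA1 except in liver 72, where APOA1 measured 23897 TMM CPM. In backfat APOC3 measured 0, 0.0153, 13.1, 0 and 0.0515 TMM CPM, so that 778 of its 782 backfat counts came from backfat 69. The log2 fold change was -12.28 (SE 2.42, FDR 0.000909 by edgeR) and -19.50 without backfat 69, where 4 counts were left. The ratio of APOA1 to APOC3 counts was 0.888 to 1.54 in the 5 liver libraries and 36.8 in backfat 69. Backfat 69 held 28654 APOA1 counts beside its 778 of APOC3. The other 4 backfat libraries held APOA1 at 1.15 to 1.46% of the liver mean, with every hepatocyte marker at or below 0.0208%. The part of hepatocyte RNA in the APOA1 level of backfat was not tested.

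APOA4 (chr9:44201587-44204072, minus strand), a lipid-responsive apolipoprotein best known from the intestine, lay 7098 bases from APOC3. Its liver levels were 26.9, 138, 37.9, 124 and 141 TMM CPM, a spread of 5.24-fold. All backfat libraries together held 1 count, in backfat 69, against 17075 in liver. The count rate was 29007-fold higher in liver (exact 95% interval 5205 to 1145770, counting error only), and the fitted log2 fold change of -14.06 (SE 0.85, FDR 5.35e-08 by edgeR) rests on that count. All 2486 bases of APOA4 lie inside a RefSeq non-coding gene on the other strand, and the counting did not use strand, so reads of the pair cannot be told apart. APOA2 (chr4:89237514-89239126), another protein of HDL, measured 1855, 845, 1814, 4028 and 2737 TMM CPM in liver. In backfat it measured 0.0902, 0.0458, 2.84, 0.0180 and 0.0343 TMM CPM, and 169 of its 183 backfat counts were in backfat 69. For APOA2 the fit gave a log2 fold change of -11.87 (SE 1.61, FDR 4.79e-05 by edgeR), and -15.37 without backfat 69.

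APOE and APOM were measured in both tissues. APOE (chr6:51373113-51375333) is the ligand by which remnant particles bind receptors of the LDL receptor family, and it is also made by macrophages and adipocytes. It measured 2202, 2811, 4517, 3411 and 4227 TMM CPM in backfat of boars 65, 67, 69, 71 and 72. In liver it measured 27844, 12507, 28314, 79177 and 60109 TMM CPM. The lowest liver library, liver 67, was still above the highest backfat library, and APOE spread more widely in liver (6.33-fold from lowest to highest) than any other of the 8 genes called there. The log2 fold change of -3.60 (SE 0.68, FDR 0.000657 by edgeR) was the smallest of the 9, and it was -3.95 without backfat 69 and liver 67. APOE ranked 30 to 48 among all genes per exon length in the backfat libraries and 6 to 23 in liver. The 9 macrophage markers summed to 429 to 765 TMM CPM in backfat and 1615 to 2275 in liver. Of the 9, 2 were called higher in liver (11.2% of all tested genes were), 7 were not called and none was at 0 throughout a tissue. Their part in the APOE difference was not tested.

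APOM (chr7:23768974-23773324), the carrier of sphingosine-1-phosphate on HDL, was a low but steady transcript of backfat. It measured 3.12, 5.11, 2.15, 3.50 and 2.20 TMM CPM there, and 189, 102, 139, 340 and 307 TMM CPM in liver. Backfat 69 was the lowest backfat library for APOM, unlike for the liver-only genes. Its log2 fold change was -6.06 (SE 0.43, FDR 1.88e-07 by edgeR) and -5.94 without backfat 69. Within boars, liver exceeded backfat by 4.45 to 23.2-fold for APOE, 18.8 to 143-fold for APOA1 and 20.0 to 140-fold for APOM. Since the libraries did not overlap between the tissues, the direction had to be the same in 5 of 5 boars for each of the 3 genes.

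APOD was the only gene of the list with its higher level in backfat. APOD (chr13:132514546-132562594, minus strand) encodes a lipocalin that binds small lipids such as arachidonic acid and is unrelated in fold to the helical apolipoproteins. It measured 268, 356, 285, 142 and 138 TMM CPM in backfat and 0.0748, 0.486, 0.319, 0.316 and 0.0814 TMM CPM in liver. Backfat 71 and 72 were the lowest of their tissue, and the 5 liver libraries together held 49 counts against 79994 in backfat. For APOD the fit gave 9.85 on the log2 scale (SE 0.56, FDR 3.46e-08 by edgeR), a ratio of means of 932, and it was 10.14 without backfat 69 and liver 67. Adipose stromal markers (5 of 8 called higher in backfat, 1 higher in liver) summed to 36688 to 67953 TMM CPM in backfat and 858 to 1302 in liver. Schwann cell markers summed to 7.41 to 49.6 TMM CPM in backfat, highest in backfat 69 and at most 14.4 in the other 4, and to 3.13 to 7.11 in liver. Of the 4 tested, 3 were called higher in backfat, and 2 were without backfat 69, with the boar as a block or by DESeq2. Over all tested genes, 11.1% were called higher in backfat and 11.2% higher in liver. The part of either cell type in the APOD level was not tested.

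**Figure D2:**
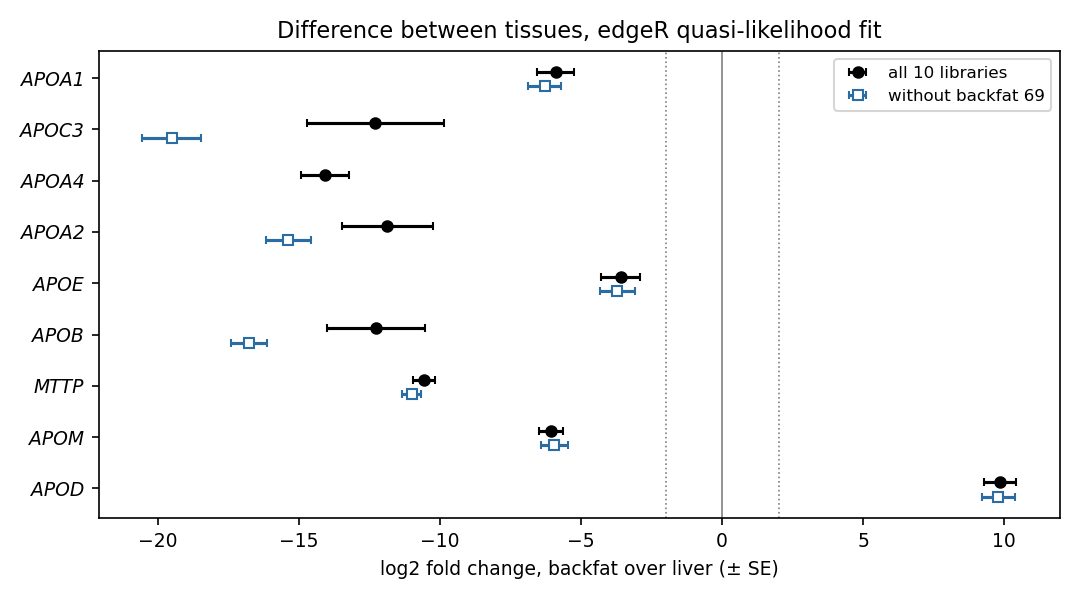
Log2 fold change of backfat over liver for each gene with its SE, from the edgeR fit with all 10 libraries (filled circles) and without backfat 69 (open squares). Dotted lines mark a size of 2, and APOA4 has no open square since no backfat count was left. APOC3 moves from -12.28 to -19.50 and APOB from -12.25 to -16.75, while APOE moves from -3.60 to -3.71 and APOD from 9.85 to 9.79.

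Set against each other per exon length, in TPM, which divides counts by exon length before scaling to depth, the genes kept a different order in each tissue. In liver APOE (16660 ± 8328), APOC3 (16188 ± 5901) and APOA1 (15547 ± 7452 TPM, SD, n = 5) led the list, and their ranges overlapped. APOA2 followed at 1874 ± 793 TPM and APOB at 287 ± 126 TPM, each clear of its neighbour above in all 5 libraries. APOM (104 ± 43.7), APOA4 (77.2 ± 36.5) and MTTP (54.6 ± 26.4 TPM) overlapped with each other. In backfat APOE led at 2895 ± 382 TPM, followed by APOA1 at 565 ± 238 and APOD at 348 ± 177 TPM, with APOE above APOA1 and APOA1 above APOD in 5 of 5 libraries although the ranges of APOA1 and APOD overlapped. The next by mean, APOC3, averaged 5.98 TPM in backfat, nearly all of it from backfat 69. APOC3 was above APOM (3.44 ± 1.71 TPM) in only 1 of 5 backfat libraries. The exon lengths behind TPM exceed the RefSeq span for APOA2 and APOE (1747 against 1613 bases and 3534 against 2221 bases). They also exceed the RefSeq transcript for every gene but APOD, as for APOM (2994 against 739 bases) and APOC3 (1126 against 291). If RefSeq's ends are right, TPM is understated to unlike degrees, so the order given here depends on the lengths used. Together the 9 genes took 0.383 to 0.650% of the counts in backfat and 2.31 to 8.76% in liver.

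The liver libraries did not move as a block. In TMM CPM, liver 71 and 72 were the 2 highest libraries for APOE, APOA1, APOC3, APOA2 and APOM, but not for APOB, MTTP or APOA4. From lowest to highest, these levels spread by 3.07-fold for APOA1, 3.02-fold for APOC3, 4.76-fold for APOA2 and 3.33-fold for APOM. The spread was 1.77-fold for APOB and 1.55-fold for MTTP. This contrast depended on the scaling. In TPM, liver ranged from 124 to 446 for APOB and from 28.0 to 88.3 for MTTP. It ranged from 6240 to 25890 for APOA1 and from 7047 to 22874 for APOC3. For APOM, liver 65 (129 TPM) passed liver 71 (120 TPM). Measures of the libraries moved alongside. Genes with exons summing to under 2000 bases took 28.1 and 27.1% of the nuclear counts in liver 71 and 72 and 20.8 to 25.9% in the other 3, and genes of over 5000 bases took 31.8 and 32.8% against 36.2 to 38.5%. Among the genes highest in liver 71 and 72, exons summed to 1301 bases for APOA1, 1747 for APOA2, 1126 for APOC3, 2994 for APOM and 3534 for APOE. Among the others they summed to 14860 bases for APOB, 5657 for MTTP and 1544 for APOA4. The part of transcript length in the spread was not tested.

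In backfat, the level as a share of the liver mean separated the groups of genes. In backfat 69 the 5 liver-only genes lay at 0.0180 to 0.136% of their liver mean and the 8 hepatocyte markers at 0.0439 to 0.202%. In the other 4 backfat libraries the liver-only genes reached at most 0.0694%, which was MTTP, and the markers at most 0.0208%. APOA1 lay at 3.31% in backfat 69, above that band. Without backfat 69 and liver 67, all 8 genes were still called higher in liver and APOD higher in backfat.

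**Figure D3:**
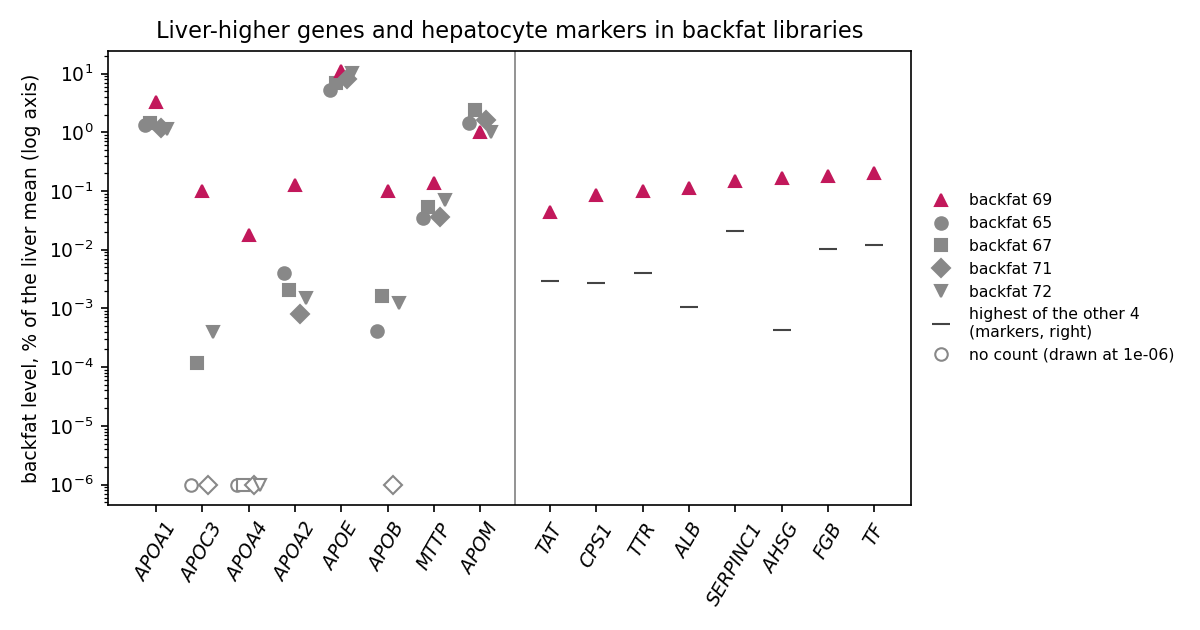
Level in each backfat library as a percentage of the mean of the 5 liver libraries (log axis), for the 8 genes called higher in liver (left) and for 8 hepatocyte markers (right), where a dash marks the highest of the other 4 backfat libraries. Backfat 69 (triangles) lies at 0.0180 to 0.202% for liver-only genes and markers alike, while APOA1, APOE and APOM lie near or above 1% in all 5 libraries.

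Other genes of lipoprotein metabolism, listed by role, were counted in the same fit. Of the apolipoproteins outside the list, APOH, CLU and APOF were measured, and APOC1, APOC2, APOC4 and APOR had no ID in the name table. All 3 were called higher in liver (11.2% of all tested genes were). CLU (apolipoprotein J, an extracellular chaperone) was expressed in both tissues, at 254 ± 83.2 TMM CPM in backfat and 7426 ± 1394 in liver (log2 fold change -4.87, FDR 1.58e-06). APOH averaged 1.13 TMM CPM in backfat, with 5.55 in backfat 69, and 5704 ± 2090 in liver (-12.30, FDR 0.000259). Backfat 69 held 330 of its 336 backfat counts, and without that library the log2 fold change of APOH was -17.77. APOF was low, at 0.230 ± 0.117 TMM CPM in backfat and 1.68 ± 1.72 in liver, its libraries overlapped, and its call (-2.85, FDR 0.00791) was lost with the boar as a block (-2.20, FDR 0.0629).

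Of 11 tested genes of particle assembly and secretion, 4 were called higher in liver (11.2% of all tested genes were) and 7 were not called. The median log2 fold change was -0.77. The 4 were SAR1B, a GTPase of the vesicles that carry large cargo out of the endoplasmic reticulum (48.5 ± 6.45 against 203 ± 53.0 TMM CPM, log2 fold change -2.07), PLA2G12B (-10.78), SMLR1 (-11.15) and CIDEB (-6.95), the last 3 named after their values were seen. Backfat 69 held 17 of the 20 backfat counts of PLA2G12B, whose log2 fold change was -13.02 without it. The call of SAR1B was lost without backfat 65 (-1.995), without liver 65 (-1.95) and under library size alone (-1.39). P4HB, the protein disulfide isomerase that is the other subunit of the MTTP complex, measured 350 ± 49.1 TMM CPM in backfat and 1330 ± 481 in liver. Its log2 fold change of -1.92 (FDR 0.000365) missed the size limit, and it was -2.17, and so called, without liver 67. SURF4 (0.11) and VMP1 (0.33) were not called. The subunits of the MTTP complex thus had log2 fold changes of -10.57 and -1.92.

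In apoB mRNA editing, which makes the short form of APOB, the cofactors A1CF (0.0600 ± 0.0990 against 218 ± 34.2 TMM CPM, log2 fold change -11.85) and RBM47 (5.11 ± 1.74 against 33.4 ± 15.7 TMM CPM, -2.71) were called higher in liver. Backfat 69 held 14 of the 18 backfat counts of A1CF, whose log2 fold change was -13.60 without it. APOBEC1, the deaminase itself, had no count in backfat and averaged 0.0586 TMM CPM in liver, too low to be tested. For HDL lipidation and remodelling, 2 of 6 tested genes were called higher in liver (11.2% of all tested genes were), with a median of -0.46. They were PON1, an HDL-bound esterase (20.2 ± 17.6 against 695 ± 296 TMM CPM, log2 fold change -5.11), and LIPC, hepatic lipase (1.57 ± 0.350 against 158 ± 68.5 TMM CPM, -6.65). The HDL receptor SCARB1 (165 ± 26.6 against 96.1 ± 22.9 TMM CPM, log2 fold change 0.78) and the cholesterol exporter ABCA1 (28.7 ± 23.7 against 40.4 ± 20.6 TMM CPM, -0.49, and 0.19 under scaling by library size alone) were not called. PON3 (1.01) was called higher in backfat only with the boar as a block (2.08, FDR 0.0133) or without liver 69 (2.72), and was named after its values were seen. LCAT had no count in any of the 10 libraries.

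Of 11 transcription factors known to act on apolipoprotein genes, 6 were called higher in liver (11.2% of all tested genes were) and 5 were not called. The median log2 fold change was -2.08, which was that of PPARA. HNF4A (0.594 ± 0.423 against 439 ± 109 TMM CPM, log2 fold change -9.52) and CREB3L3 (0.627 ± 0.620 against 416 ± 146 TMM CPM, -9.33) were among the 6. The others, named after their values were seen, were NR0B2 (-10.10), PPARA (-2.08), NR1H4 and FOXA2. NR1H4 had 2 counts in backfat, both in backfat 69. FOXA2 had no count in backfat and was at least 3670-fold higher in liver, set against a floor of 3 counts over all backfat libraries. With FOXA2 at that bound the median stayed at -2.08. The call of PPARA was lost with the boar as a block (-1.89), under library size alone (-1.41) and without backfat 69 (-1.99), backfat 72 (-1.95), liver 65 (-1.93) or liver 69 (-1.71). MLXIPL (233 ± 101 against 404 ± 113 TMM CPM, log2 fold change -0.80) and CEBPA (306 ± 124 against 119 ± 60.2 TMM CPM, 1.36), a factor of adipocytes as well as hepatocytes, were not called, though CEBPA was under library size alone (2.03).

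**Figure D4:**
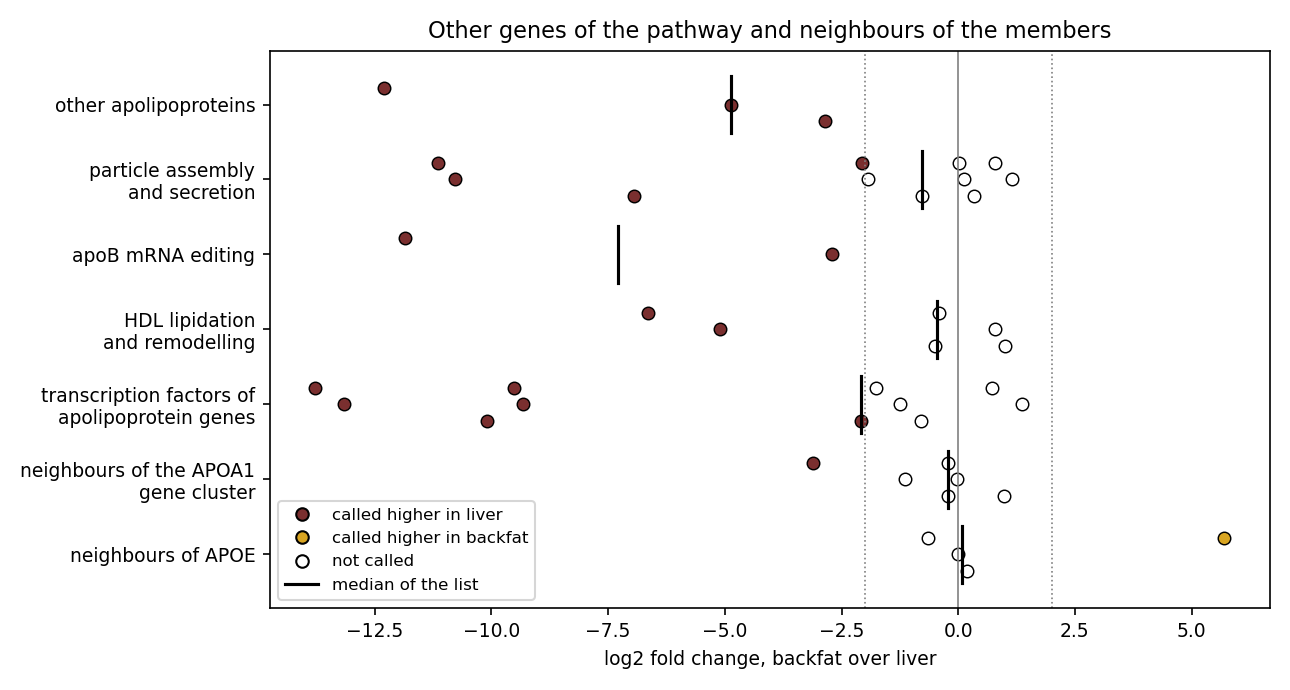
Log2 fold change of backfat over liver of the tested genes of 5 roles in lipoprotein metabolism and of the genes beside the APOA1 cluster and beside APOE, with the median of each list as a bar and dotted lines at a size of 2. The median is -2.08 for the transcription factors, -0.77 for assembly and secretion and -0.21 for the neighbours of the APOA1 cluster.

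Of 10 tested genes beside the APOA1 cluster or APOE, 1 was called higher in liver, 1 higher in backfat and 8 were not called. These counts were near the shares over all tested genes, 11.2% called higher in liver and 11.1% higher in backfat. Among the 6 neighbours of the APOA1 cluster, ZPR1, a zinc finger protein, was called higher in liver (40.5 ± 8.02 against 353 ± 79.5 TMM CPM, log2 fold change -3.12, FDR 2.94e-07). RefSeq places 304 of its bases over APOA5 on the same strand, where reads of the pair cannot be told apart. SIK3, which lay 4866 bases from APOA1, missed the size limit at -1.15 (FDR 0.000225). BUD13 (-0.21), PAFAH1B2 (-0.04), SIDT2 (-0.22) and TAGLN (0.98) were not called, and the first 3 of these turned positive under scaling by library size alone. Beside APOE, TOMM40, which lay 3180 bases away, had a log2 fold change of -0.65, CLPTM1 one of 0.18 and RELB one of -0.0019. None of the 3 was called, and TOMM40 and RELB turned positive under scaling by library size alone. BCAM, a cell adhesion molecule 62569 bases from APOE, was called higher in backfat (1543 ± 121 against 29.7 ± 14.4 TMM CPM, log2 fold change 5.70, FDR 2.28e-07).

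The genes whose levels were most like those of 3 members were found by Euclidean distance in log2(TMM CPM + 0.5) over the 10 libraries. For APOD they were THBS4, a matrix protein (distance 1.65, 232 ± 53.3 against 0.0721 ± 0.0150 TMM CPM), CILP (2.32) and PPARG, the master factor of adipocytes (2.66, 161 ± 34.4 against 0.742 ± 0.576 TMM CPM). For APOA1 the nearest was CLU (2.51), followed by SERPING1 (4.99) and the ferritin chain FTL (5.40), which all held a level in both tissues. For APOE the nearest were 3 genes of the mitochondrial genome, COX2 (5.04), CYTB (5.62) and COX3 (5.70), with the members left out of the search. None of the 3 was called between the tissues (log2 fold changes -1.67, -0.97 and -1.71). The mitochondrial share of counts was highest in liver 67, the liver library with the lowest APOE level. The distance reads level as well as difference, and the 10 libraries share 2 tissues.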

How the data were processed

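RNA-seq reads of 5 backfat and 5 liver libraries were trimmed with Trimmomatic and aligned to Sscrofa11.1 with HISAT2 by the authors, who deposited raw read counts per gene from featureCounts 2.0.1 with the Ensembl release 99 annotation, without strand and without multi-mapping reads. Deposited bisulfite summaries, given by read position, were not used. The genes and the lists of roles and markers were chosen with earlier results of these data known. Counts were fitted with edgeR 4.0.16 (R 4.3.3): TMM, filterByExpr by tissue, the quasi-likelihood test with tissue as the term, and Benjamini-Hochberg adjustment over all tested genes, after a check on simulated counts. Calls needed FDR no higher than 0.05 and a log2 fold change no smaller than 2 in size. DESeq2 1.42.0, other scalings and filters, the boar as a block and left-out libraries were alternatives. Symbols were matched to the table's IDs through a name table (15029 of 31907 genes) and coordinates to RefSeq, of the same build. Named genes were the members, genes of the lists of roles highest in mean TMM CPM (up to 4 a list), all other apolipoproteins and neighbours, and for APOA1, APOE and APOD the 3 nearest genes. Other genes are marked as chosen after their values were seen. Boar numbers come from the column names, and the labels do not state them. Deviations of backfat and liver libraries of the same number from their tissue means correlated at 0.049 to 0.238 over genes, and 4 of 5 matched their own number best, so the block is given as an alternative. Libraries of 1 tissue differed by far more than sampling noise (chi-square per gene at least 61.5). The p-values of the main fit measure the spread between the libraries of a tissue, without pairing by boar. Each SE given with an edgeR fit was computed here, as the size of the log2 fold change over the square root of the test's F value. It is not a direct measure of the spread between libraries. For APOC3 the SE was 2.42 with backfat 69 and 1.04 without it, where few backfat counts were left. Protein sequences were not analysed here, and 1 listed gene and 1 upstream window are not reported here. Intervals and floors cover counting error only.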

Additional observations from a re-analysis of the deposited data

Results flagged for a closer look

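For each of the 9 genes and each tissue, the gap of the highest or lowest library to its nearest neighbour was compared with the range of the 5 libraries by Dixon's test at the 95% level. This test marks about 1 in 20 groups by chance. It marked 5 of 18 groups, and in all 5 it was backfat 69 that stood above the other backfat libraries. The marked levels were 482 TMM CPM for APOA1, 2.84 for APOA2, 0.0168 for APOA4, 2.76 for APOB and 13.1 for APOC3, and the value for APOA4 is 1 count where the other 4 libraries had none, so the test had to mark that group and it carries no weight. The other backfat libraries reached at most 213 TMM CPM for APOA1, 0.0902 for APOA2, 0.0458 for APOB and 0.0515 for APOC3. The hepatocyte markers were also highest in backfat 69, as given in the report, and their part in these levels was not tested.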

How the results depend on the processing

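The 8 calls higher in liver and the call of APOD higher in backfat were kept under every alternative in which the gene was tested (17 or 18 each). At least 10 counts in every library left 3 members called higher in liver, 0 higher in backfat, and 981 and 871 of all genes, since fewer genes were tested. Of all genes, 2874 were called higher in backfat under library size alone, where the median log2 fold change was 0.71, and 2729 higher in liver without a filter. A limit of 10% gave 8 liver-only members. DESeq2 called 2631 genes higher in liver and 2268 in backfat. With the boar as a replicate block, 8 members were called higher in liver and 1 in backfat, with 1757 and 1913 of all genes and APOC3 at -17.70, and the block changed no other call of a member. Leaving out each library gave 8 and 1 members, 5 liver-only members and 1837 to 1942 and 1817 to 2127 of all genes. Directions turned only for uncalled genes near 0, and the cause was not tested. Under library size alone these were ABCA1 (0.19), BUD13 (0.52), PAFAH1B2 (0.67), SIDT2 (0.51), TOMM40 (0.045) and RELB (0.71), and without a filter PAFAH1B2 (0.022) and RELB (0.061). Without backfat 69 and liver 67, they were SURF4 (-0.041) and RELB (0.24). Leaving out 1 library gave SURF4 -0.035 to 0.28, VMP1 -0.28 to 0.57, CLPTM1 -0.028 to 0.41, PAFAH1B2 -0.11 to 0.028 and RELB -0.23 to 0.19. Depth limits the liver-only genes in backfat, where a library without a count allows up to 3 counts.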
